A study of Mus musculus with 12 samples.

Results

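The genes described here are 7 subunits of the GABA-A receptor that are prominent in the forebrain, Gabra2, Gabra3, Gabra4, Gabra5, Gabrb1, Gabrb2 and Gabrd. They were chosen by name, and all 7 had a row among the 19775 genes of the deposited table. The table holds whole-brain RNA-seq values of 12 male C57BL/6N mice at about postnatal day 120, bred from heterozygous parents. The study asked how the loss of Slc6a20a, a transporter of proline and glycine, changes the brain transcriptome. Of the 12 mice, 4 were wild type (WT), 4 were Slc6a20a+/- (HT) and 4 were Slc6a20a-/- (HM), the mutant allele lacking exon 3. Each mouse gave 1 library. The values are normalized counts, that is, estimated read counts per gene scaled between mice by the authors. Slc6a20a itself averaged 679 ± 70.1 (SD, n = 4) in WT mice, 345 ± 29.1 in HT mice and 64.6 ± 9.95 in HM mice, with no overlap between genotypes.

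GABA-A receptors are chloride channels opened by GABA, the main inhibitory transmitter of the adult brain. Each channel is a pentamer of alpha and beta subunits, whose interface binds GABA, joined in most channels by a gamma subunit and in others by delta. The alpha subunit sets much of the channel's location and pharmacology. Channels with alpha 2 or alpha 3 lie largely at synapses, those with alpha 5 are abundant in the hippocampus, and those with alpha 4 and delta carry tonic inhibition outside synapses in the thalamus and dentate gyrus. The label forebrain refers to where these subunits are known to be prominent, not to the sample. The tissue was whole brain, and the summed level of 9 cerebellum markers was between 3900 and 4474 normalized counts in the 12 mice, with none of the markers at 0. Gabrd is also known in cerebellar granule cells, so its values need not come from the forebrain. In such bulk tissue, fewer cells of a type and less RNA per cell cannot be told apart.

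In the GENCODE M21 annotation of GRCm38, most of the 7 genes lie in clusters with other subunits. Gabra2 (ENSMUSG00000000560, minus strand, 70957597 to 71095849), Gabra4 (ENSMUSG00000029211, minus strand, 71569749 to 71658308) and Gabrb1 (ENSMUSG00000029212, plus strand, 71658113 to 72149037) share a cluster of chromosome 5 with Gabrg1. Gabra4 and Gabrb1 start head to head, and 46 bp of exon belong to both. Gabra5 (ENSMUSG00000055078, minus strand, 57407672 to 57510059) lies on chromosome 7, beside Gabrg3. It has 148 exon bp in common with the antisense gene Gm9962, which had a mean of 72.5 normalized counts. The strand of the reads is not given in the sources used here, so reads from such shared bases could not be assigned with certainty. Gabrb2 (ENSMUSG00000007653, chromosome 11, plus strand, 42419757 to 42629028) lies on another chromosome than the remaining members, and Gabra3 (ENSMUSG00000031343, chromosome X, minus strand, 72432681 to 72656848) lies between Gabre and Gabrq. Gabrd (ENSMUSG00000029054, chromosome 4, minus strand, 155384980 to 155398112) lies apart from these clusters.

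The sequence before the start of 3 of these genes is shown here because the results turn on them, Gabra2 for its spread within each genotype and Gabrb1 and Gabrb2 because they were low in the same mouse. Each run is the 250 bases directly upstream of a RefSeq start (GRCm38.p6), read 5′ to 3′ on the gene's strand, and holds no exon of a protein-coding transcript. Capitals mark the letters of 3 promoter motifs searched on both strands, the TATA box (TATAAA), the GC box (GGGCGG) and the CCAAT box (CCAAT).
Gabra2, chr5:71095850-71096099, minus strand: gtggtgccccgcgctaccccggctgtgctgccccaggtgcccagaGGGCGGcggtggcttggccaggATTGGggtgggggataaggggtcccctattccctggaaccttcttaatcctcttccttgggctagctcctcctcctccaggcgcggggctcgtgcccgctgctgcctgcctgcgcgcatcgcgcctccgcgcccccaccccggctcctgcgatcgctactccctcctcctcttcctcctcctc
Gabrb1, chr5:71699682-71699931, plus strand: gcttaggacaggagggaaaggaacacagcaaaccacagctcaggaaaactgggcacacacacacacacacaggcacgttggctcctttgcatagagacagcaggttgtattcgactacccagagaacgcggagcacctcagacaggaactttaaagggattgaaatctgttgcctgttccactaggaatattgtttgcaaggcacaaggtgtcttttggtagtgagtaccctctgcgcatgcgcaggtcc
Gabrb2, chr11:42420190-42420439, plus strand: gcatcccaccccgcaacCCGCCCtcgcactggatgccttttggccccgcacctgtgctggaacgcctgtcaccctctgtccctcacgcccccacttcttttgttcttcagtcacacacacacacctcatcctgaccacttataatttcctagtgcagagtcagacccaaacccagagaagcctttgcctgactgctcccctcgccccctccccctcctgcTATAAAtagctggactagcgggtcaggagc
The Gabra2 run, with 70.0% G and C, held a GC box on the gene's strand and a CCAAT box on the opposite strand. The Gabrb2 run, with 58.8% G and C, held a TATA box from 30 to 25 bases before the start and a GC box on the opposite strand. None of these letters occurred in the Gabrb1 run, with 50.8% G and C, which stands before the more downstream of that gene's 2 listed starts. Among 32851 promoter windows of this length in the same RefSeq table, 12.4% held the TATA box letters, 32.7% those of the GC box and 33.9% those of the CCAAT box. These matches describe the letters alone.

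The levels of the 7 subunits were compared with each other only per length. Divided by the length of the longest protein-coding transcript in kb, WT means ran from 1140.4 ± 14.0 normalized counts per kb (SD, n = 4) for Gabra3 to 371 ± 37.3 for Gabrb1. Gabra3, Gabrd, Gabrb2 and Gabra4 had WT means between 939 and 1140.4 per kb. Neighbours in this order overlapped between mice, so the order among these 4 was not resolved. Gabra5 followed at 763 ± 40.8 per kb and overlapped with Gabra4 through 1 HM mouse. Gabra2, at 447 ± 103, and Gabrb1 lay below all values of Gabra5 and overlapped with each other. The order depended on the length used. With the median length of the protein-coding transcripts, which was the measure chosen first, Gabra4, Gabra3 and Gabrb2 led with overlapping values and Gabra2 was lowest, separate from Gabrb1. That median was 7268 nt for Gabrb1, against 13737 nt for its longest transcript, and 2407 nt for Gabra4, against 4108 nt. The longest transcript was taken for the plot of levels after these values were seen.

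**Figure D1:**
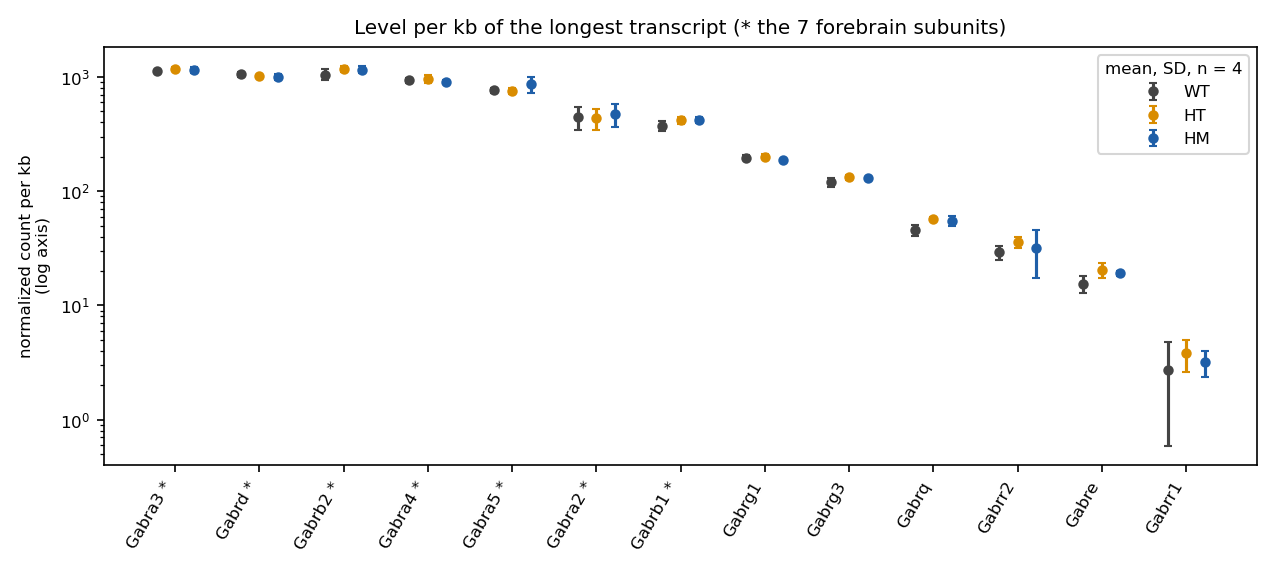
Level of the 7 forebrain subunits, marked by asterisks, and 6 further GABA-A receptor subunits in normalized counts per kb of the longest protein-coding transcript, on a log axis. Points are means of 4 mice and bars the SD, for WT, HT and HM mice. The 7 forebrain subunits lie above Gabrg1 and the remaining 5 in each genotype.

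Among the alpha subunits, Gabra3 and Gabra4 were at nearly the same level in all genotypes. Gabra3 had normalized counts of 4247, 4158, 4173 and 4126 in WT mice 1 to 4, of 4552, 4227, 4175 and 4198 in HT mice, and of 3925, 4191, 4218 and 4556 in HM mice. The WT values lay within the range of the HM values and overlapped with those of HT mice. The log2 fold change of Gabra3 was 0.04 ± 0.04 (SE) in HT and 0.01 ± 0.05 in HM against WT, with 95% intervals of -0.05 to 0.12 and -0.08 to 0.11. Gabra4, the partner of delta in tonic inhibition, had 4004, 4054, 3739 and 3628 normalized counts in WT mice, 3934, 4362, 3760.2 and 3771 in HT mice, and 3804, 3654, 3609 and 3903 in HM mice. The highest value belonged to HT mouse 2, and the genotypes overlapped. Gabra4 had a log2 fold change of 0.04 ± 0.06 in HT and -0.04 ± 0.05 in HM against WT, with intervals of -0.08 to 0.15 and -0.14 to 0.06.

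Gabra2 differed between mice of the same genotype far more than between genotypes. Its normalized counts were 1993, 2201.5, 3173.5 and 3088 in WT mice 1 to 4, 2255, 3321, 2219.7 and 2398 in HT mice, and 2399, 3456.5, 2119.8 and 3166 in HM mice. In each genotype some mice lay at or below 2399 and some at or above 3088, and no mouse lay between. WT had 2 mice in the higher range, HT 1 and HM 2. The SD of its log2 values within genotypes was 0.32, against a median of 0.07 for the 6636 genes whose mean reached 1000 normalized counts, of which 0.256% had a higher SD. The log2 fold change of Gabra2 was -0.03 ± 0.15 (95% interval -0.35 to 0.30) in HT and 0.09 ± 0.17 (-0.27 to 0.46) in HM against WT, so changes within these bounds were not resolved with 4 mice a group. The sign of both changes turned when single mice were left out. In its chromosome 5 cluster, Gabra4 showed no such ranges, and Gabrg1 was between 875 and 1007 normalized counts in all mice. Gabrb1, the remaining gene of the cluster, was highest in HT mouse 2, HM mouse 2 and HM mouse 4, with 6275, 6084 and 6009 normalized counts, and these are 3 of the 5 mice in the higher range of Gabra2. The other 2 of the 5, WT mice 3 and 4, had 5454 and 5274. Among all pairs of the 7 subunits, Gabra2 and Gabrb1 had the smallest permutation p for deviating together within genotypes. No r over all mice is given for this pair because Gabra2 lay in separate ranges. Within its lower range of 7 mice, centred within genotypes, r was 0.72 and rho 0.64 (exact permutation p = 0.167 for each, where 0.0417 is the smallest that 24 arrangements allow), and r was 0.63 without the 2 mice farthest out in Gabra2. This relation was added after the values were seen.

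Nnt, a gene with a coding deletion in C57BL/6J and not in C57BL/6N, was read beside the strain given in the labels. It had between 538 and 819 normalized counts in the 12 mice, summed over 2 annotated models that share reads. The sum was at 0 in none of them, and no genotype stood apart in it. A deletion within the gene need not bring its count to 0, so these values do not tell the substrains apart. For the single model tested, the log2 fold change was -0.47 in HT and -0.53 in HM against WT, neither with an unadjusted limma p under 0.05.

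**Figure D2:**
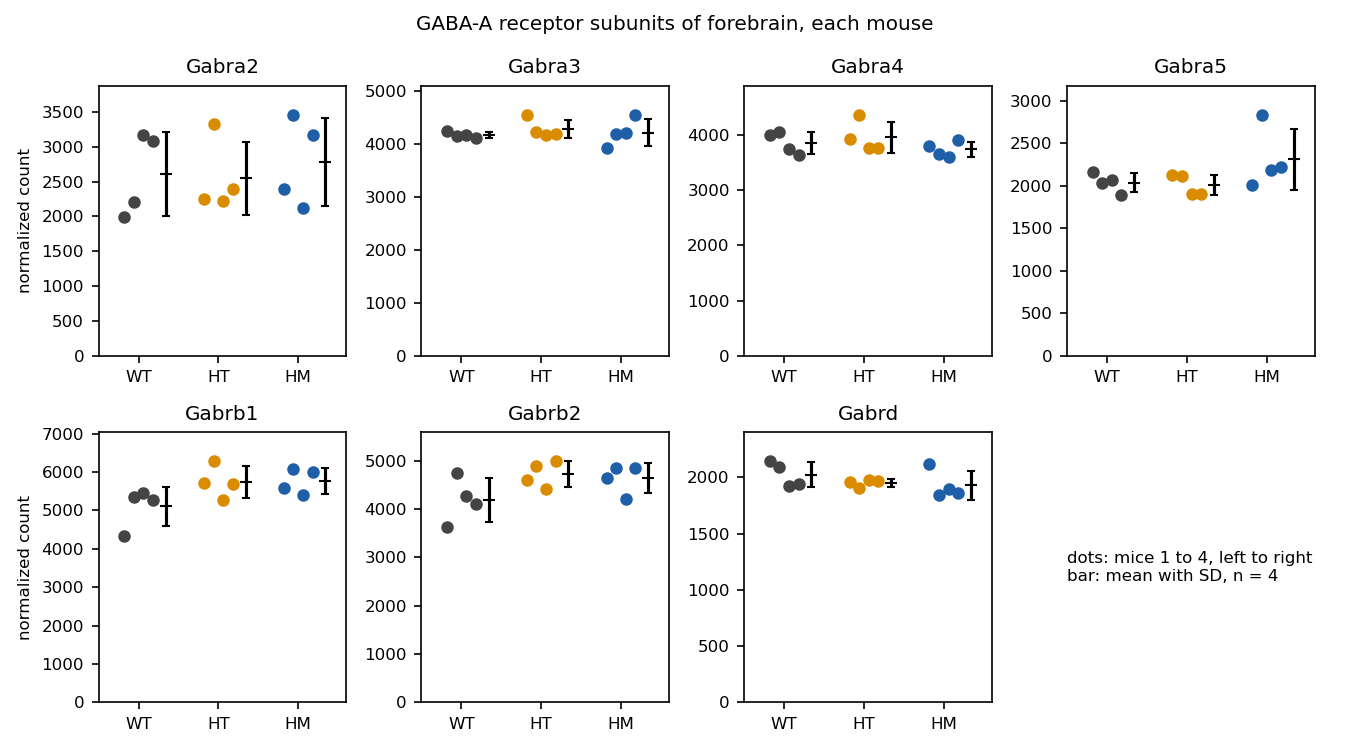
Normalized count of each of the 7 subunits in every mouse, with the axis starting at 0. Dots are mice 1 to 4 of WT, HT and HM from left to right, and bars give the mean and SD (n = 4). Gabra2 lies in a lower and a higher range in each genotype, HM mouse 2 is the highest for Gabra5, and WT mouse 1 is the lowest for Gabrb1 and Gabrb2.

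Gabra5, the alpha subunit of extrasynaptic receptors on hippocampal neurons, stood out in 1 mouse. Its normalized counts were 2158, 2030.5, 2066 and 1895 in WT mice, 2120.0, 2109, 1906 and 1899.5 in HT mice, and 2009, 2831.5, 2180.4 and 2220.2 in HM mice. HM mouse 2 lay above all others, at 138% of the mean of the other 11 mice. HM mice 3 and 4 lay slightly above the highest WT and HT values, and HM mouse 1 lay within the range of WT. In HM mice Gabra5 had a log2 fold change of 0.17 ± 0.09 (-0.02 to 0.36) against WT, with an unadjusted limma p of 0.0709. Without HM mouse 2 it was 0.07, with an unadjusted limma p of 0.263. In HT against WT the log2 fold change was -0.02 ± 0.06 (-0.14 to 0.10). Between HM and HT it was 0.19 ± 0.09 with all mice and 0.09 without HM mouse 2, with p-values in limma of 0.0467 before and 1 after adjustment for all mice.

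Genes around Gabra5 on chromosome 7 were read in the same mouse, and are named because of these values. Gabrg3, the neighbouring subunit gene, was at 100.4% of the mean of the other 11 mice. Ndn, an imprinted gene farther along the chromosome, had 8401 normalized counts in HM mouse 2 and between 4128 and 5227 in the others, which put this mouse at 182% of their mean. HM mice 1, 3 and 4 had 4804, 5063 and 4894, also above the highest WT value of 4568, while HT values overlapped with both. HM and WT mice did not overlap for 4.22% of all tested genes. Herc2, Atp10a, Ube3a, Snrpn and Magel2 were between 95.5% and 112% of the mean of the other 11 mice.

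**Figure D3:**
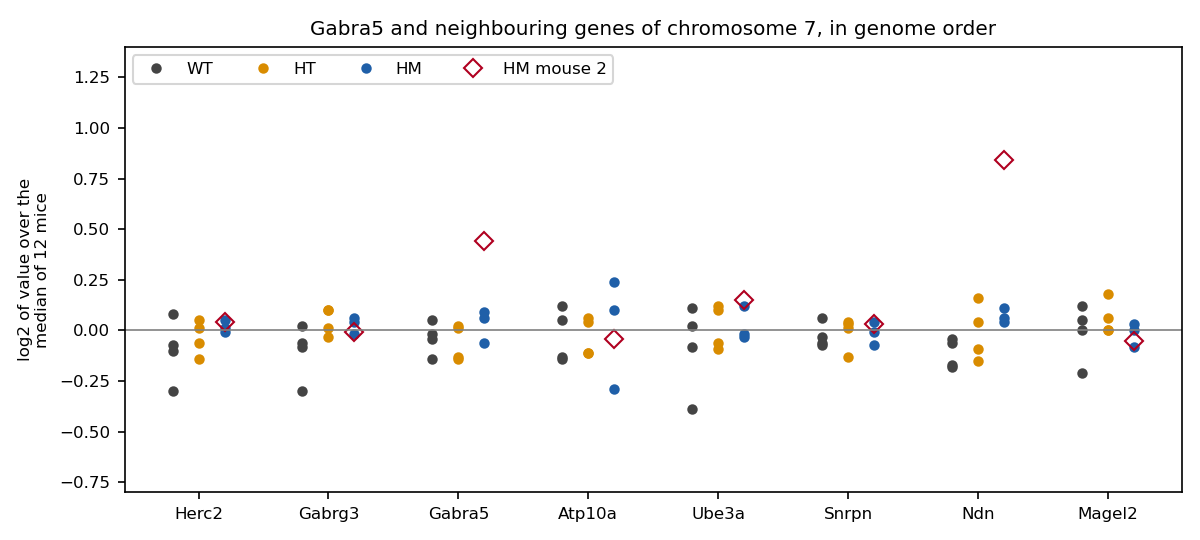
Gabra5 and 7 genes around it on chromosome 7 in genome order, as the log2 of each mouse's normalized count over the median of the 12 mice. Dots are mice by genotype and the open diamond is HM mouse 2, which lies apart for Gabra5 (0.44) and Ndn (0.84) and within or close to the other mice for the remaining 6 genes.

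The beta subunits Gabrb1 and Gabrb2 complete the GABA binding site. Both had higher means in the mutants than in WT, and WT mouse 1 was the lowest of all 12 mice for both. Gabrb1 had normalized counts of 4344, 5342, 5454 and 5274 in WT mice, of 5716, 6275, 5260.0 and 5695 in HT mice, and of 5577, 6084, 5389 and 6009 in HM mice. Apart from WT mouse 1, WT values lay between 5274 and 5454, and the lowest HT and HM values fell below or inside that range. The log2 fold change of Gabrb1 was 0.17 ± 0.07 (0.02 to 0.32) in HT and 0.18 ± 0.07 (0.03 to 0.33) in HM against WT, with unadjusted limma p-values of 0.0302 and 0.0204 and adjusted p-values of 0.77 and 0.667. Without WT mouse 1, both log2 fold changes were 0.10, with unadjusted limma p-values of 0.0918 in HT and 0.0437 in HM. In the 2-sided exact permutation test of this gene alone, p was 0.114 in HT and 0.0571 in HM, where 0.0286 is the smallest p that 4 against 4 mice allow.

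Gabrb2, a widely expressed beta subunit of the adult brain, had 3636 normalized counts in WT mouse 1 and 4753, 4261 and 4113 in the other WT mice. HT mice were at 4608, 4888, 4406 and 4985 and HM mice at 4644, 4858, 4211 and 4857. The ranges overlapped, with WT mouse 2 above 2 of the 4 HT mice and 2 of the 4 HM mice. The log2 fold change of Gabrb2 was 0.18 ± 0.07 (0.03 to 0.33) in HT and 0.15 ± 0.07 in HM against WT, with unadjusted limma p-values of 0.024 and 0.0556 and adjusted p-values of 0.77 and 0.724. Without WT mouse 1, the log2 fold changes were 0.11 and 0.09, with unadjusted limma p-values of 0.0775 and 0.185. The exact permutation test of this gene alone gave a p of 0.0857 in HT and 0.143 in HM. Both comparisons use the same WT mice, so a low WT mouse enters both.

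WT mouse 1 was low for long transcripts in general. A length index, the median log2 deviation of 2109 genes with a transcript of at least 6000 nt minus that of 3602 genes with none above 2000 nt, was -0.22 in WT mouse 1 and between -0.05 and 0.07 in the other 11 mice. Gabrb1, whose longest transcript has 13737 nt, is itself 1 of the 2109, and the longest Gabrb2 transcript has 3989 nt. Centred within genotypes, the length index and Gabrb2 had a Pearson r of 0.90 over the 12 mice (exact permutation p within genotypes = 7.23e-05, adjusted p = 0.00203) and a Spearman rho of 0.90 (exact permutation p = 0.000651, adjusted p = 0.0182). For Gabrb1 r was 0.87 (exact permutation p = 0.00376, adjusted p = 0.0351) and rho 0.81 (exact permutation p = 0.00412, adjusted p = 0.0547). Leaving out the 2 mice whose index was farthest from its median, r was 0.82 for Gabrb2 and 0.79 for Gabrb1. Gabrb1 and Gabrb2 also deviated together, with an r of 0.82 (exact permutation p = 0.006, adjusted p = 0.042), a rho of 0.68 (exact permutation p = 0.0387, adjusted p = 0.181), and an r of 0.62 when the 2 mice farthest out in Gabrb1 were dropped. These p-values are adjusted over 28 relations, the pairs of the 7 subunits and each subunit with the index. After each mouse was corrected for a smooth trend with transcript length, the log2 fold change of Gabrb1 was 0.11 in HT and 0.10 in HM against WT, and that of Gabrb2 0.17 and 0.14. The unadjusted limma p-values of these were 0.0254 and 0.026 for Gabrb1 and 0.0254 and 0.061 for Gabrb2. The adjusted ones were 0.832 and 0.718 for Gabrb1 and 0.832 and 0.772 for Gabrb2. Within mice whose animal numbers start alike, the log2 difference of HT from WT was 0.08 for Gabrb1 and 0.10 for Gabrb2, over 4 HT mice and WT mice 2 to 4. In HM against WT it was 0.24 for Gabrb1 (p-values in limma of 0.00255 before and 0.471 after adjustment) and 0.12 for Gabrb2. These HM values rest on 2 pairs, HM mouse 3 with the low WT mouse 1 and HM mouse 4 with WT mouse 2, so the WT mice behind the HT and HM values differ.

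**Figure D4:**
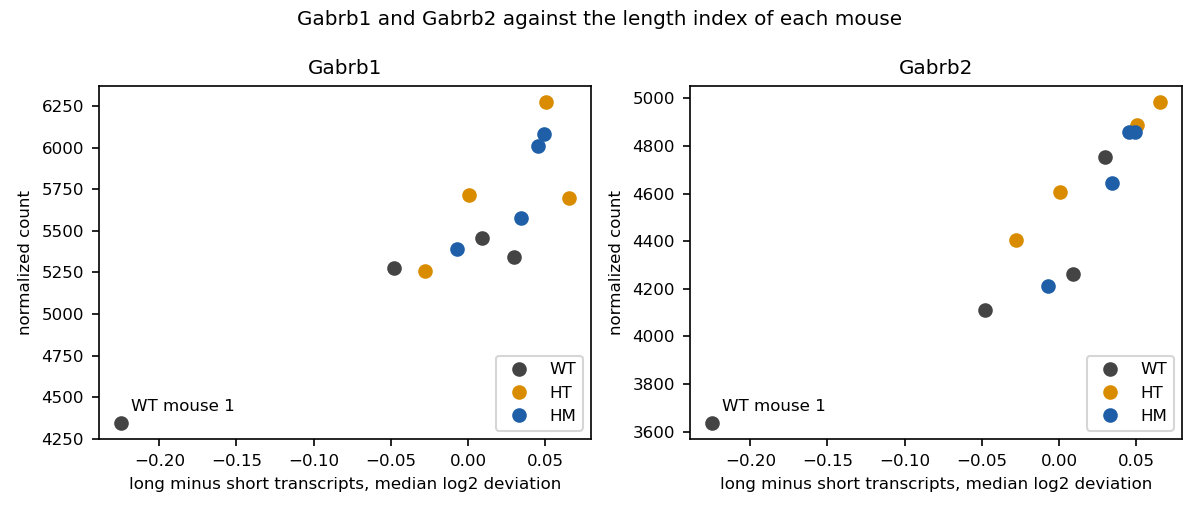
Normalized count of Gabrb1 and of Gabrb2 in each mouse against the length index, the median log2 deviation of long minus short transcripts. Points are single mice of WT, HT and HM, the vertical axes do not start at 0, and WT mouse 1 lies at an index of -0.22 with the lowest value of both genes.

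Gabrd, the delta subunit of tonic receptors, was the steadiest member in HT mice. Its normalized counts were 2142, 2094, 1921 and 1944 in WT mice, 1956, 1903, 1977 and 1971 in HT mice, and 2123, 1844, 1899 and 1859 in HM mice. The genotypes overlapped, and 1 HM mouse lay among the higher WT values. Against WT, the log2 fold change of Gabrd was -0.05 ± 0.05 (-0.16 to 0.05) in HT and -0.07 ± 0.06 (-0.19 to 0.05) in HM mice. Within animal numbers that start alike, the HM value rests on the same 2 pairs as for the beta subunits and was -0.17, with p-values in limma of 0.0402 before and 0.62 after adjustment.

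Taking the 7 subunits as a list, 0 of 7 passed the adjusted p threshold of 0.05 in limma in any comparison, where 0.00555% of all tested genes were called in HT against WT, 0.0111% in HM against WT and 0.00556% in HM against HT. In HT against WT, 2 of 7 were higher with an unadjusted p under 0.05, as were 3.16% of all tested genes. In HM against WT this was 1 of 7 beside 3.93% of all genes, and in HM against HT 1 of 7 beside 2.11%. No member was lower by this count in these fits, and within animal numbers Gabrd was, in HM against WT. The median log2 fold change of the 7 was 0.04 in HT against WT, 0.09 in HM against WT and -0.02 in HM against HT, and that of all tested genes was 0.00 in each. The direct comparison of HM with HT gave log2 fold changes between -0.08 for Gabra4 and 0.19 for Gabra5, with 0.12 ± 0.15 for Gabra2 and 0.01 ± 0.05 for Gabrb1. The genotypes overlapped for 7 of 7 in each comparison, while 3.73% of all tested genes did not overlap in HT against WT, 4.22% in HM against WT and 2.38% in HM against HT.

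**Figure D5:**
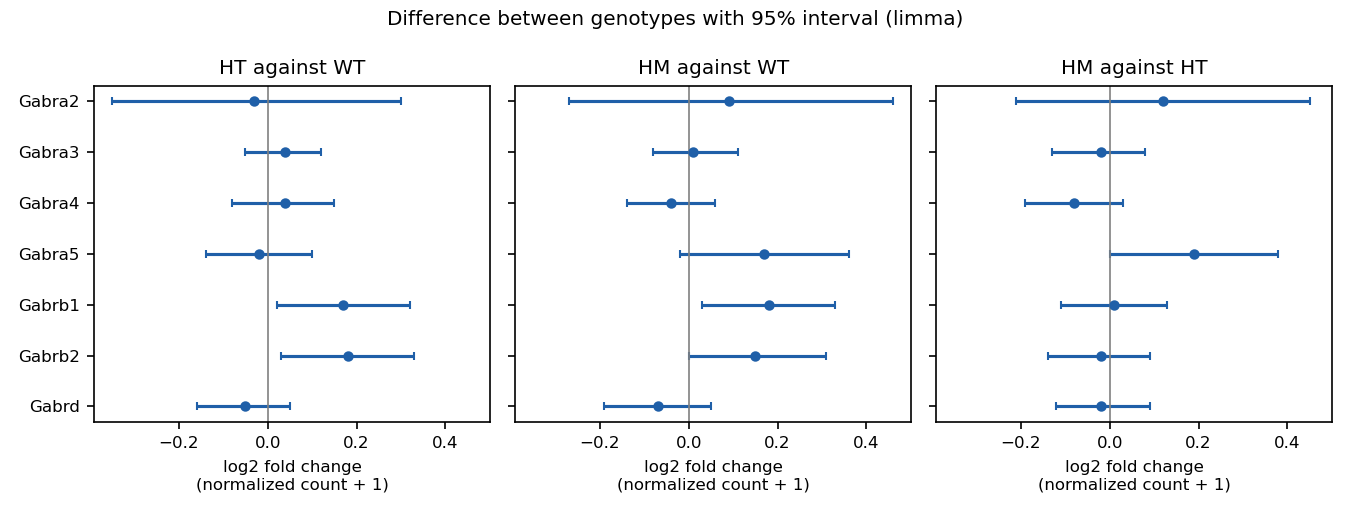
Log2 fold change of each subunit with its 95% interval from limma, on the log2(normalized count + 1) scale, for HT against WT, HM against WT and HM against HT. The intervals of Gabrb1 in both mutants against WT, of Gabrb2 in HT against WT and of Gabra5 in HM against HT lie above 0 before adjustment, and those of Gabra2 are the widest in each panel.

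Of 6 further GABA-A subunits, 5 were tested, and 0 passed the adjusted threshold in limma. In HT against WT 3 of the 5 had an unadjusted p under 0.05 and were higher, in HM against WT 1 of 5, and in HM against HT none. By the same count, 3.16% of all tested genes were higher in HT against WT, 3.93% in HM against WT and 2.11% in HM against HT. Gabrq, the theta subunit, which neighbours Gabra3 on the X chromosome, had 285 ± 8.23 normalized counts in HT and 225 ± 24.6 in WT mice. It was the only one of these 5 whose HT and WT mice did not overlap, which held for 3.73% of all tested genes, and its log2 fold change was 0.35 ± 0.09, with p-values in limma of 0.00248 before and 0.75 after adjustment. In HM mice Gabrq was at 273 ± 26.0, with a log2 fold change of 0.28 ± 0.10 against WT and p-values of 0.017 and 0.664. Gabre, the epsilon subunit on the other side of Gabra3, averaged 88.4 ± 13.2 in HT mice against 66.3 ± 10.9 in WT, with a log2 fold change of 0.41 ± 0.16 and p-values in limma of 0.0259 before and 0.77 after adjustment. Gabrg3, a gamma subunit, had a log2 fold change of 0.15 ± 0.07 in HT, with p-values of 0.0457 and 0.77.

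Genes that make, move and anchor what these receptors need gave no call past the adjusted threshold either. Of 9 genes for GABA synthesis, transport and breakdown, 3 had an unadjusted p under 0.05 in HT against WT and 2 in HM against WT, all higher. Among all tested genes, 3.16% and 3.93% were higher by this count. Gad2, a GABA-synthesizing enzyme, had a log2 fold change of 0.11 ± 0.04 in HT, Abat, which breaks GABA down, 0.09 ± 0.04, and Slc32a1, the vesicular GABA transporter, 0.12 ± 0.05. Their unadjusted p-values in limma were 0.0121, 0.0253 and 0.0469, and the adjusted ones 0.768, 0.77 and 0.772. In HM mice, Slc6a11, a glial GABA transporter, had a log2 fold change of 0.12 ± 0.04 and Aldh5a1, which clears the product of Abat, 0.09 ± 0.04, with unadjusted p-values of 0.00977 and 0.0438. Of 19 clustering and trafficking genes, such as the scaffold and receptor-associated proteins, 0 had an unadjusted p under 0.05 against WT in either mutant, and Shisa7, an auxiliary subunit, had a log2 fold change of 0.12 ± 0.04 in HM against HT, with an unadjusted p-value of 0.016. Neither the 6 GABA-B receptor genes nor the 2 chloride cotransporter genes reached an unadjusted p under 0.05 in any comparison.

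Markers of regions and cell types gave 0 calls past the adjusted threshold in limma, and the counts here are of unadjusted p-values under 0.05. Of 12 olfactory bulb markers, 10 were higher in HM against WT at an unadjusted p under 0.05 and 0 after adjustment, beside 3.93% of all tested genes higher by the unadjusted count. Summed levels were 9706 to 12099 in HM and 9016 to 9920 in WT mice. In HM against HT, also 10 of the 12 were higher by the unadjusted count, beside 2.11% of all tested genes. Genes of that list are among those the study named from these samples, so it is no independent evidence of its direction. Of 8 dentate gyrus and CA markers, 3 were higher in HT and 2 in HM against WT by the same count, beside 3.16% and 3.93% of all tested genes. The log2 fold change was above 0 for 4 of the 8 in HT and for 5 of the 8 in HM. The sums were 10990 to 12142 in HT, 11208 to 11588 in HM and 10210 to 11047 in WT mice. At an unadjusted p under 0.05, the 5 choroid plexus markers had 3 lower in HM mice (9665 to 17666, against 15032 to 19531 in WT). The 5 erythrocyte markers had 5 lower in HT mice (6495 to 8717, against 7780 to 21984). In either direction, 1156 of 18004 tested genes had such a p in HT against WT and 1258 of 18004 in HM against WT. In HM against HT, 4 of the 5 erythrocyte markers were higher by that count, beside 2.11% of all tested genes. No marker of any list was at 0 in any mouse, and the part of these markers in the values of the 7 subunits was not tested.

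For each subunit, the genes whose log2 values deviated most like its own within genotypes were also found, over the 12 mice and the genes tested. Gabra2 was most like A930006K02Rik (r = 0.95), Apba1 (0.94) and Gm16050 (0.93), of which Apba1 had a mean of 8288 normalized counts and the other two under 21. Gabrb1 was nearest to Gm47976 (0.98), Samd12 (0.97) and Garem1 (0.96), and the 3 nearest to Gabrb2 included Csrnp3 (0.95) and Celf2 (0.95). Among the 3 genes nearest to Gabra3 was Me1 (0.91), and Gabra4 was nearest to Fam172a (0.89), 5730414N17Rik (0.88) and Dbndd1 (0.87). Gabra5 was most like Nrbf2 (0.89), Caml (0.88) and Gm38699 (0.87), and Gabrd most like Smc6 (0.93), Zfp513 (0.91) and Tsfm (0.89). These values of r are the highest among 18006 genes, share the libraries and the depth of the mice, and describe likeness alone, and for Gabra2 they span its separate ranges. No subunit was among the 3 genes nearest to another.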

How the data were processed

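The authors sequenced whole-brain RNA prepared with the TruSeq RNA v2 kit, quantified reads on GRCm38 with Salmon 1.1.0, used tximport for gene-level sums and DESeq2 1.30.1 for normalization. The deposited signal, a normalized count per gene and mouse, is not whole reads, which could not be recovered, so count models were not fitted and intervals from counting were not computed. Column sums were between 33284951 and 33748623 after normalization and do not show the depth, which is unknown. The authors' filter on genes is not given in the sources used here.

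Groups came from the titles. Symbols, positions and lengths came from GENCODE M21, in which 19758 of 19775 identifiers were found. Each pair of genotypes was fitted on its own in limma 3.58.1 (R 4.3.3). The log2 of the normalized count plus 1 was fitted with a variance trend, a mean of 10 over the 8 mice was required of each gene, and p-values were adjusted over all genes tested (18004, 18004 and 17986) by Benjamini-Hochberg with a threshold of 0.05. Each gene was also compared by a 2-sided exact permutation test of mice. Fits were tested on simulated data. Nothing in the labels says whether mice were littermates or prepared together, and p-values measure the spread between these mice. Correlations were computed in Python 3.11.15 on values centred within genotype, with 2-sided exact permutations within genotype. The lowess correction for transcript length used a span of 0.4.

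The 7 members, lists and tests were chosen with earlier results of these data known. Named in the text are all members and Slc6a20a, up to 3 genes of each GABA list and comparison with the smallest p under 0.05 among the genes reported, all subunits in the order of levels, those reported of the 3 genes most like each member, and Nnt. Ndn and the genes around Gabra5 were chosen after their values were seen. Gabra6, Gabrp, Gabrr3 and Insyn2a were not analysed here, and some genes and the shares of subunit classes are not reported here. The marker lists not given with counts above (cerebellum, striatum, thalamus, cortical excitatory, interneuron, astrocyte, oligodendrocyte and microglia) had at most 3 genes each with an unadjusted p under 0.05 and 0 past the adjusted threshold in any comparison. By the unadjusted count, 3 of 5 microglia markers were lower in HM against HT, where 672 of 17986 tested genes were called in either direction. Of 8 interneuron markers, 2 were lower in HT against WT, 1 was higher and 1 lower in HM against WT, and 1 was higher in HM against HT.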

Additional observations from a re-analysis of the deposited data

Results flagged for a closer look

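In groups of 4 mice, a value was picked out when its gap to the next exceeded Dixon's 95% limit for that group size, which chance does in about 1 group of 20, and 6 of 63 groups had such a value. Ndn, among the 6, was chosen after its values were seen, so this count cannot be set against that rate. HT mouse 2 was the highest HT mouse for Gabra2 (3321 normalized counts) and HT mouse 1 for Gabra3 (4552). WT mouse 1 was the lowest WT mouse for Gabrb1 (4344) and WT mouse 4 the highest for Gabrg1 (1007). HM mouse 2 was the highest HM mouse for Ndn (8401), on the same chromosome as Gabra5, for which it was also the highest of all mice without passing this limit. Slc32a1 was lowest among HT mice in HT mouse 2 (3786). The cause of none of these values was tested.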

How the results depend on the processing

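None of the 7 subunits passed the adjusted threshold in any fit, and their adjusted p-values over all fits were between 0.471 (Gabrb1, HM against WT, within mice whose animal numbers start alike) and 1. Outside the fits that left out a mouse, 207 of 210 fold changes kept their sign. Those that turned were Gabra3 (0.05) and Gabrb2 (0.03) in HM against HT with the block for animal number, which there rests on 1 HM and 2 HT mice, and Gabrb1 (-0.01) in HM against HT with the transcript-length correction, which was added after seeing the data. With that block in HM against WT, which rests on 2 HM and 2 WT mice, Gabra2 was 0.31, Gabra4 -0.10, Gabra5 0.07 and Gabrd -0.17. The number of all genes called was 0 in HT against WT (1014 at an unadjusted p under 0.05) and 1 in HM against WT with a variance prior without a trend, and in HM against HT it was 2 without the filter and 3 with the block for animal number. Leaving out single mice gave 1 to 5 genes in HT against WT and 1 to 7 in HM against HT. In HT against WT, leaving out single mice moved Gabra2 from -0.16 to 0.08, Gabra4 from -0.01 to 0.06 and Gabra5 from -0.06 to 0.01. In HM against WT it moved Gabra2 from -0.03 to 0.21 and Gabra3 from -0.02 to 0.05. In HM against HT it moved Gabra3 from -0.06 to 0.01, Gabrb1 from -0.03 to 0.05, Gabrb2 from -0.06 to 0.02 and Gabrd from -0.06 to 0.00. The place in the order of levels per length changed for 5 subunits with the longest transcript and for 5 with the union of exons, and for 0 to 3 subunits when single WT mice were left out (3 without WT mouse 1). The cause of these changes was not tested. Replicate numbers are shared between genotypes, but same-numbered mice deviated together with correlations of only -0.076 to 0.098, so they were not treated as pairs. With the replicate block, 1 gene was called in HM against WT and no call among the subunits changed. TMM normalization, the edgeR test and DESeq2 were not run because whole reads were not recovered. With 4 mice a group, the 95% intervals of the subunits in the comparisons with WT were between 0.17 and 0.72 wide on the log2 scale, which limits what could be seen.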
